A study of Mus musculus with 15 samples.

Results

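Transcripts of 9 chemokine genes were followed in cultured mouse bone macrophages, namely Cxcl14, Cxcl16, Ccl2, Ccl7, Ccl12, Ccl6, Ccl9, Ccl24 and Pf4. The genes were taken by symbol from a deposited table of 16886 genes, and all 9 were found in it. The set was chosen by name with earlier results of these data known, and Cxcl14 was selected on its high level in VLDLR knockout libraries, so that difference is given as a description without a test. The others were listed by name as chemokines that macrophages make without added stimulation.

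The cells were bone macrophages of the strain C57BL6J, kept in culture for 14 days in the presence of the macrophage growth factor M-CSF at 20 ng/ml, and their total RNA was sequenced. The genotypes were a knockout of the lipoprotein receptor VLDLR (VLDLR_KO), a knockout of the guidance receptor ROBO4 (ROBO4_KO) and wild type (WT), with 5 libraries each. The labels used here name no allele, promoter or age, every group had received the same M-CSF, and whether replicates were separate animals or cultures is not said, which leaves p-values that cover library-to-library spread, possibly technical. The sample codes came in 2 forms whose meaning the labels do not give, with a digit before the letter B in 7 libraries and after it in 8. The before-B libraries were VLDLR_KO 1 and 2, ROBO4_KO 1 and 2 and WT 3, 4 and 5. The after-B libraries were VLDLR_KO 3, 4 and 5, ROBO4_KO 3, 4 and 5 and WT 1 and 2.

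Chemokines are small secreted proteins that bind to receptors on leukocytes and direct their movement. The CCL2, CCL7 and CCL12 proteins act mainly through CCR2 and draw monocytes, whereas mouse CCL6 and CCL9 act through CCR1. CXCL16 is made as a membrane-anchored protein that binds CXCR6 and oxidized lipoprotein and is released by ADAM10. CCL24 draws eosinophils through CCR3, PF4 is best known from platelet granules, and CXCL14 is a homeostatic chemokine of epithelia and other tissues whose receptor is debated.

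Libraries held 18132866 to 19005966 estimated counts, and 11668 genes were tested. All 10 macrophage markers examined reached 1 CPM, with a summed level of 19117 to 34411 CPM (counts scaled to a common library size with TMM factors) in VLDLR_KO, 12810 to 15328 CPM in ROBO4_KO and 11077 to 17408 CPM in WT libraries. The higher sum did not stand for the markers in general. Between VLDLR_KO and WT edgeR called 1 of the 10 higher and 3 lower, against 7.74% and 9.03% of all tested genes. Their median log2 fold change was 0.05. The deleted genes gave little check of the labels, because Vldlr had 1 to 9 counts in VLDLR_KO, 2 to 38 in ROBO4_KO and 5 to 36 in WT libraries, and Robo4 had 0 in every ROBO4_KO library and at most 4 in WT. The after-B WT libraries stood apart, with 4282 to 4716 CPM summed over 13 immediate-early genes, against 666 to 1355 CPM in all other libraries. Levels of the 7 tested chemokine genes are therefore given by code form. In these bulk samples fewer cells of a type and less RNA per cell cannot be told apart.

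Per length of transcript, in FPKM, the median over the 15 libraries was 221 for Ccl6, 90.1 for Ccl9, 53.4 for Cxcl16, 53.1 for Pf4, 20.1 for Ccl2, 9.9 for Cxcl14, 8.4 for Ccl7 and 0.74 for Ccl12. Ccl24 had a median of 0. The ranges of neighbours in this order overlapped, as with Cxcl16 (22.3 to 198 FPKM) and Pf4 (7.68 to 109 FPKM). Ccl6 exceeded 98% and Ccl9 95% of all genes in the table by median FPKM. Counts were present in all 15 libraries for 7 genes, in 13 for Ccl12 and in 3 for Ccl24. The share of all genes with counts in every library is not given here. Between the lowest and highest library, the CPM of these 7 genes differed from 5.2-fold for Ccl6 to 61.7-fold for Ccl2. Presence of counts does not show constitutive expression, which was not tested, because every culture had received M-CSF.

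Ccl24, an eosinophil attractant, was counted 2 times in ROBO4_KO 2, 1 time in ROBO4_KO 5 and 1 time in VLDLR_KO 5. It was at 0 in the other libraries, where a count of 0 allows up to 0.158 to 0.165 CPM. Ccl12, a monocyte attractant, had counts of 0, 4, 46, 9 and 27 in VLDLR_KO 1 to 5, of 9, 2, 0, 2 and 9 in ROBO4_KO 1 to 5, and of 3, 13, 6, 5 and 2 in WT 1 to 5. Its 2 highest counts were both in after-B VLDLR_KO libraries. Neither gene passed the filter on low counts over all libraries, so 7 of the 9 were tested.

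**Figure D1:**
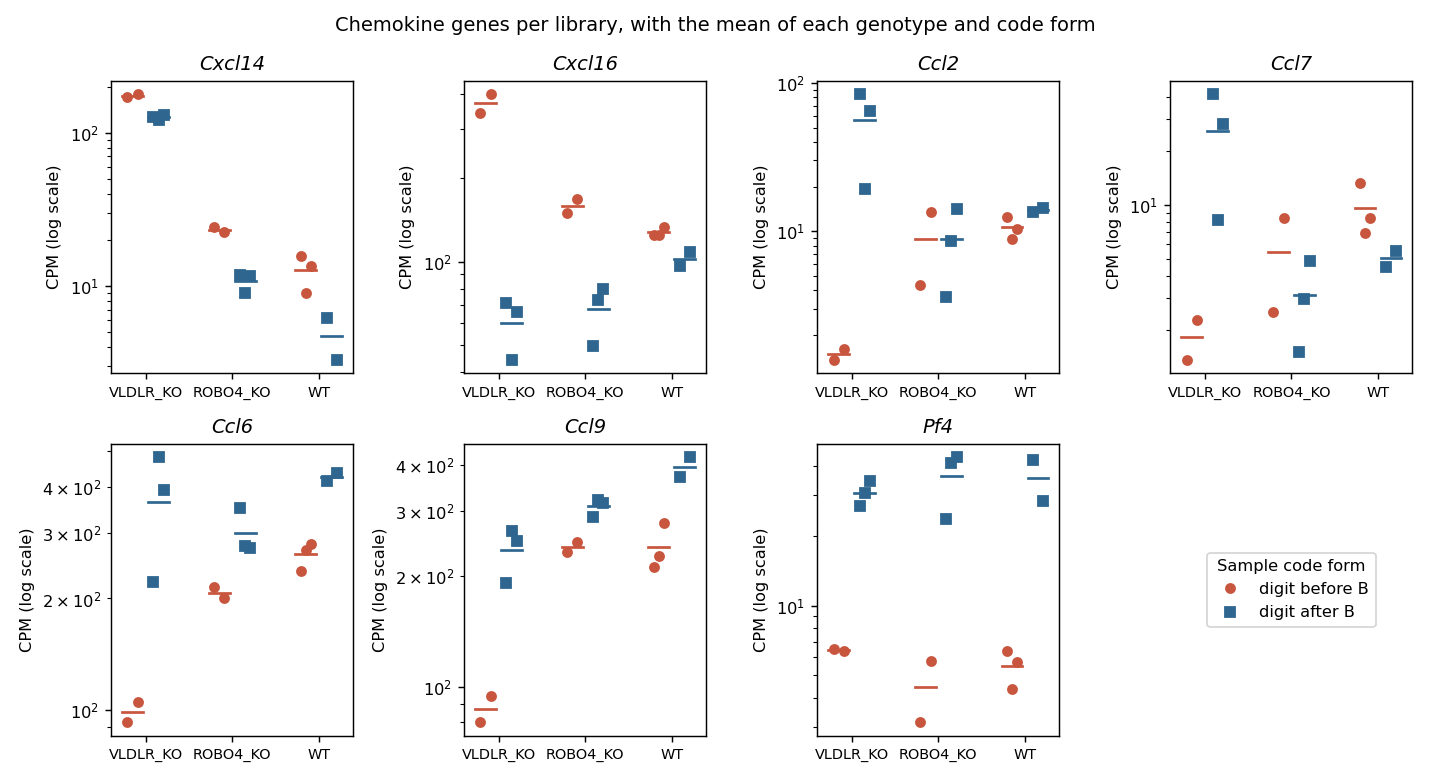
Level of 7 chemokine genes in each library, in CPM on a log axis, by genotype, with circles for before-B libraries, squares for after-B libraries and bars for the mean of each set. Cxcl14 lies between 121 and 178 CPM in all VLDLR_KO libraries, while Ccl2 in that genotype is at most 1.61 CPM before B and at least 19.2 CPM after B.

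Cxcl14 had the same direction in both code forms. It had 170 and 178 CPM in the before-B VLDLR_KO libraries, 24.3 and 22.4 CPM in ROBO4_KO and 15.8, 9.05 and 13.5 CPM in WT. After B it had 126, 121 and 130 CPM in VLDLR_KO, 11.8, 9.07 and 11.7 CPM in ROBO4_KO and 6.15 and 3.31 CPM in WT. The lowest VLDLR_KO library lay above the highest of the other genotypes, and within each form the order was VLDLR_KO, ROBO4_KO, WT with no overlap. Over all libraries 9.43% of genes separated VLDLR_KO from WT and 8.39% from ROBO4_KO, in either direction. Within forms, 29% and 34.6% of all genes separated ROBO4_KO from WT, before and after B. The shares were 51.5% and 51.4% for VLDLR_KO from WT, and 62.7% and 34.2% for VLDLR_KO from ROBO4_KO. With code form as a covariate, the log2 fold change of Cxcl14 between VLDLR_KO and WT was 4.23 (SE 0.22), and that between VLDLR_KO and ROBO4_KO was 3.30 (SE 0.21). Within forms the VLDLR_KO to WT value was 3.77 (SE 0.21) before B and 4.73 (SE 0.24) after B.

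The smaller difference of Cxcl14 between ROBO4_KO and WT was not itself the ground for choosing it and was tested. It shares the WT libraries against which the VLDLR_KO level stood out, so its p-values are not free of that choice. It was 0.94 on the log2 scale (SE 0.20, 95% interval 0.50 to 1.38), with 15.8 ± 6.96 CPM in ROBO4_KO and 9.57 ± 5.15 CPM in WT (SD, n = 5 each). Adjusted over all genes by edgeR's quasi-likelihood test, it missed the threshold (adjusted p = 0.0562). It passed without WT 3, VLDLR_KO 1 or VLDLR_KO 2 (adjusted p = 0.0237 to 0.0479) and missed without any other library (adjusted p up to 0.163). With a library left out the difference ranged from 0.76 to 1.08, and over all alternative fits from 0.68 to 1.19. Within the after-B libraries it passed at 1.19 (SE 0.23, adjusted p = 0.0474), and within the before-B libraries it was 0.87 (SE 0.21, adjusted p = 0.479). Cxcl14 was also higher in before-B than in after-B libraries across genotypes, by 0.96 (SE 0.17, adjusted p = 0.000439).

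Almost all Cxcl14 counts, 98.2% to 100% per library, were assigned to 1 of its 2 listed transcripts. The gene lies on chromosome 13 (GRCm38, 56288643 to 56296794, minus strand). The 5 genes whose centred log2 CPM followed Cxcl14 most closely over the 15 libraries were H2-T10, Ica1, Amd2, Enpp4 and Tmeff1, with a root mean square difference of 0.711 for H2-T10 against a spread of 1.86 for Cxcl14 itself. H2-T10, a nonclassical MHC class I gene, averaged 25.7 and 20 CPM in VLDLR_KO, 2.52 and 2.14 CPM in ROBO4_KO and 3.06 and 2.49 CPM in WT, before and after B. This is a description over libraries that share the genotype contrast.

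Fibroblasts and stroma, which can make CXCL14, are a cell type whose markers differed between these libraries. The 10 stromal markers summed to 8.59 and 48.3 CPM in the before-B and 91.6, 338 and 113 CPM in the after-B VLDLR_KO libraries, 44.1 to 483 CPM in ROBO4_KO and 82.4 to 639 CPM in WT. Much of these sums was Fn1, with 5.98 to 28.8 and 69.2 to 323 CPM in VLDLR_KO before and after B. It had 32.6 to 313 CPM in ROBO4_KO and 53.8 to 447 CPM in WT. Among before-B libraries the lowest sums were in VLDLR_KO, which had the highest Cxcl14. The before-B VLDLR_KO libraries had 0 and 61 counts of the collagen gene Col1a1 and 0 and 58 of the proteoglycan gene Dcn. Their counts of Col1a2, another collagen gene, were 29 and 170. Before-B ROBO4_KO and WT libraries had 154 to 659 and 299 to 993 counts of Col1a1, and 7 to 117 and 7 to 209 of Dcn. Their Col1a2 counts were 284 to 1280 and 30 to 1628. After B, the fibroblast collagen gene Col3a1 was at 2 to 5 counts in VLDLR_KO, 1 to 3 in ROBO4_KO and 12 to 25 in WT. Before B it was at 2 to 3, 11 to 130 and 47 to 255 counts. The part of these markers in the Cxcl14 result was not tested.

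Ccl2 and Ccl7, neighbouring genes for monocyte attractants on chromosome 11, moved in opposite directions in the code forms. Ccl2 had 1.36 and 1.61 CPM in the before-B VLDLR_KO libraries, 4.32 and 13.5 CPM in ROBO4_KO and 12.5, 8.89 and 10.4 CPM in WT. The after-B libraries had 83.8, 19.2 and 64.9 CPM of Ccl2 in VLDLR_KO, 3.61, 8.6 and 14.2 CPM in ROBO4_KO and 13.5 and 14.3 CPM in WT. VLDLR_KO thus held both the lowest and the highest libraries and overlapped no other genotype within a form. Such separation was common, in 51.5% and 51.4% of all genes against WT and 62.7% and 34.2% against ROBO4_KO, before and after B. Averaged over forms, the VLDLR_KO to WT difference was 0.76 on the log2 scale, with a 95% interval from -1.14 to 2.66 (adjusted p = 0.588).

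Within the before-B libraries Ccl2 was lower in VLDLR_KO than in WT by a log2 fold change of -2.83 (SE 0.51, adjusted p = 0.0108) and than in ROBO4_KO by -2.58 (SE 0.53, adjusted p = 0.0243). Within the after-B libraries it was higher than in ROBO4_KO by 2.66 (SE 0.59, adjusted p = 0.0216), while the difference from WT, 2.01 (SE 0.66), missed the threshold (adjusted p = 0.0748). The change of the VLDLR_KO to WT difference between forms, before B minus after B, was -4.85 (SE 0.98, adjusted p = 0.00754). The corresponding change against ROBO4_KO, which uses no WT library, was -5.25 (SE 0.97, adjusted p = 0.0112), and without ROBO4_KO 2 it was -4.20 and lost its call (adjusted p = 0.0584).

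Ccl7 had 1.36 and 2.26 CPM in the before-B VLDLR_KO libraries, 2.5 and 8.44 CPM in ROBO4_KO and 13.3, 6.98 and 8.37 CPM in WT. The after-B libraries had 41.4, 8.2 and 28.1 CPM of Ccl7 in VLDLR_KO, 1.5, 2.97 and 4.86 CPM in ROBO4_KO and 4.47 and 5.54 CPM in WT. As with Ccl2, VLDLR_KO 3 was highest, VLDLR_KO 4 was lowest of the after-B VLDLR_KO libraries, and the genotype did not overlap the others within a form. The shares of all genes that separated so are those given for Ccl2. Against WT, the log2 fold change was -2.39 (SE 0.58, adjusted p = 0.0285) before B and 2.37 (SE 0.67, adjusted p = 0.0492) after B. Their difference was -4.77 (SE 0.99, adjusted p = 0.00833).

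Against ROBO4_KO, Ccl7 was higher in the after-B VLDLR_KO libraries by 3.05 (SE 0.60, adjusted p = 0.0138). The before-B value was -1.59 (SE 0.61, adjusted p = 0.108), and the change between forms was -4.65 (SE 0.97, adjusted p = 0.0181), which lost its call without ROBO4_KO 2 (adjusted p = 0.0897) or VLDLR_KO 2 (adjusted p = 0.0566). Ccl12 lay in the same cluster and had 2.43, 0.502 and 1.43 CPM in after-B VLDLR_KO libraries, 0, 0.104 and 0.461 CPM in ROBO4_KO and 0.168 and 0.742 CPM in WT. Within those libraries, where it could be tested, it differed by 1.67 from WT (SE 0.94, adjusted p = 0.245) and by 2.88 from ROBO4_KO (SE 0.92, adjusted p = 0.0728).

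The start of Ccl7 lies 8260 bases beyond the end of Ccl2, and the cluster continues with Ccl11, Ccl12 and Ccl8. Ccl11, an eosinophil attractant, had no count outside 1 WT library. Ccl8, at the far end, averaged 0.203 and 0.258 CPM in VLDLR_KO, 2.13 and 0.128 CPM in ROBO4_KO and 1.19 and 0.141 CPM in WT, before and after B, with the after-B means close to what 3 counts amount to. Ccl7 was the gene nearest to Ccl2 of all tested genes, at a root mean square difference of 0.63. It was followed by Nid2, Chek1, Dtl and Vcam1, of which Chek1 and Dtl act in DNA replication and its checkpoint. Dtl averaged 1.26 and 28.5 CPM in VLDLR_KO, 2.86 and 14.5 CPM in ROBO4_KO and 5.2 and 8.74 CPM in WT, before and after B.

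The ratio of Ccl7 to Ccl2 CPM was 1.20 ± 0.288 before B and 0.451 ± 0.0369 after B in VLDLR_KO (SD, n = 2 and 3). It was 0.602 ± 0.0313 and 0.368 ± 0.0415 in ROBO4_KO (n = 2 and 3) and 0.883 ± 0.152 and 0.359 ± 0.0406 in WT (n = 3 and 2). Each before-B ratio, the lowest being 0.58, exceeded every after-B ratio, the highest being 0.494. Ccl7 thus made up more of the pair in before-B libraries of every genotype.

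Stromal cells also make CCL2. Among after-B VLDLR_KO libraries the stromal marker sum was highest, at 338 CPM, in VLDLR_KO 4, which had the lowest Ccl2, and among before-B libraries those of VLDLR_KO had the lowest sums together with the lowest Ccl2. The high after-B sum came mostly from 1 marker, Fn1, at up to 323 CPM in these libraries. Col1a1 had 2.23 to 8.56 CPM there, so the sum does not rank VLDLR_KO 4 as highest for the markers in general. The 10 NF-kB feedback genes examined, whose products are induced with Ccl2 in stimulated macrophages, summed to 540 to 590 and 329 to 358 CPM in VLDLR_KO before and after B, 351 to 366 and 303 to 314 CPM in ROBO4_KO, and 324 to 368 and 1062 to 1237 CPM in WT. Their order across the sets differed from that of Ccl2, being high in before-B VLDLR_KO libraries and in after-B WT libraries. The part of either in the Ccl2 result was not tested.

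**Figure D2:**
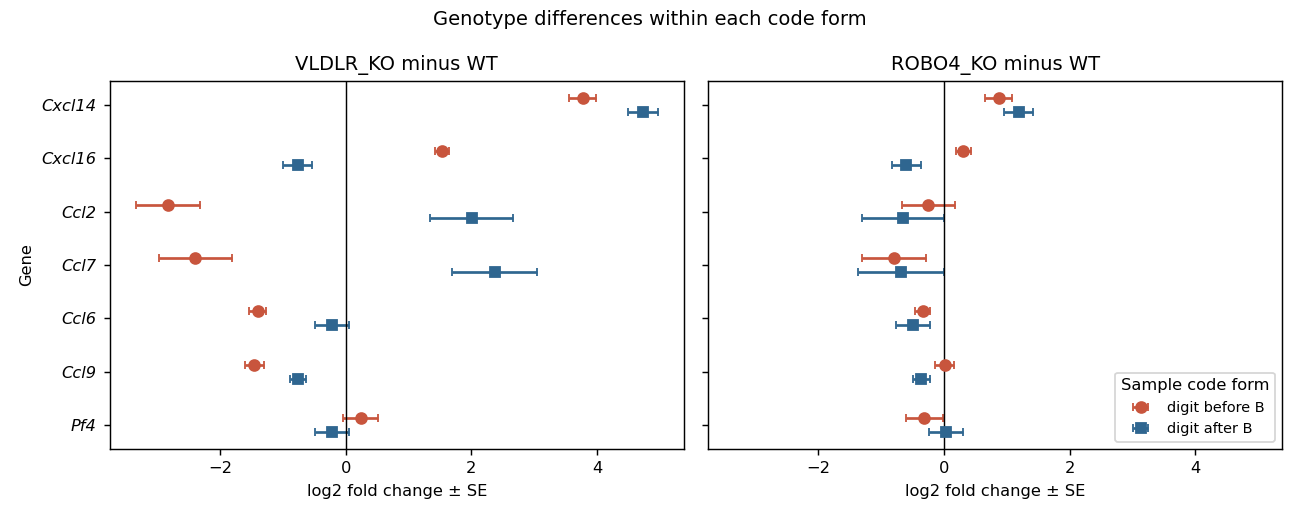
Log2 fold change with its SE for 7 chemokine genes, estimated separately in before-B libraries (circles) and after-B libraries (squares), for VLDLR_KO minus WT on the left and ROBO4_KO minus WT on the right. Ccl2, Ccl7 and Cxcl16 lie on opposite sides of 0 for VLDLR_KO, at -2.83 and 2.01, -2.39 and 2.37, and 1.54 and -0.76, whereas Cxcl14 lies at 3.77 and 4.73.

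Cxcl16, the membrane-anchored chemokine and scavenger receptor, was highest in the before-B VLDLR_KO libraries. It had 341 and 399 CPM there, 149 and 168 CPM in ROBO4_KO and 125, 125 and 133 CPM in WT. The after-B libraries had 70.8, 44.4 and 65.7 CPM of Cxcl16 in VLDLR_KO, 49.6, 72.9 and 79.6 CPM in ROBO4_KO and 96.6 and 108 CPM in WT. After B both knockouts lay below WT without overlap, and they overlapped each other. Over all genes 51.4% did not overlap between VLDLR_KO and WT there, and 34.6% between ROBO4_KO and WT.

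Cxcl16 was higher in VLDLR_KO than in WT by 1.54 on the log2 scale before B (SE 0.11, adjusted p = 0.000402) and than in ROBO4_KO by 1.23 (SE 0.13, adjusted p = 0.00202). The after-B difference from WT was -0.76 (SE 0.23, adjusted p = 0.0597). The change between forms was 2.29 (SE 0.28, adjusted p = 0.000340) against WT and 1.39 (SE 0.28, adjusted p = 0.0164) against ROBO4_KO. The second lost its call without ROBO4_KO 1, ROBO4_KO 2 or VLDLR_KO 2 (adjusted p = 0.0546 to 0.0677). The ROBO4_KO to WT difference was 0.31 before B and -0.60 after B, and its change between forms, 0.91 (SE 0.28), did not pass (adjusted p = 0.442).

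Between 23.5% and 51.0% of Cxcl16 counts were assigned to a predicted noncoding transcript of the gene, with the highest share in VLDLR_KO 2. Cxcl16 (chromosome 11, 70454232 to 70459984, minus strand) overlaps Zmynd15 on the other strand (70459622 to 70466202), and the use of strand in counting was not given in the sources used here. Zmynd15 was at 9.46 to 13.1 and 0.781 to 1.38 CPM in VLDLR_KO before and after B, 3.20 to 3.93 and 1.20 to 2.25 CPM in ROBO4_KO, and 2.06 to 3.25 and 2.51 to 3.13 CPM in WT. Like Cxcl16, it was highest in before-B VLDLR_KO libraries, where Cxcl16 had 341 and 399 CPM, and had its lowest value after B in VLDLR_KO. Whether reads of the pair were told apart where the genes overlap is not known, and the part of either gene in the counts of the other was not tested. The gene nearest to Cxcl16 in pattern was Pou2f2, a lymphoid and myeloid transcription factor, at a root mean square difference of 0.204, with 136 and 24.2 CPM in VLDLR_KO, 59.7 and 29 CPM in ROBO4_KO and 60.2 and 39.7 CPM in WT, before and after B.

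Ccl6 and Ccl9, the CCR1 ligands, had the highest median FPKM over all libraries and were the most alike in pattern, with a root mean square difference of 0.301 in centred log2 CPM. In the before-B VLDLR_KO libraries Cxcl16, at 173 and 198 FPKM, exceeded Ccl6, at 74.3 and 75.5 FPKM. Ccl6 and Ccl9 lie next to each other on chromosome 11 on the minus strand, 9250 bases apart. Promoter sequence was available from RefSeq (GRCm38.p6) for Cxcl14, Ccl12, Ccl6, Ccl9 and Pf4. The 100 bases before the start of Ccl6 (chr11:83593088-83593187) and Ccl9 (chr11:83578637-83578736) are shown because the genes moved together, with runs of at least 10 bases that they share in capitals, both read 5′ to 3′ on the minus strand.
Ccl6: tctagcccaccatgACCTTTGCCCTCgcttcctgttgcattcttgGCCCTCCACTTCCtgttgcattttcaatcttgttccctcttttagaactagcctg
Ccl9: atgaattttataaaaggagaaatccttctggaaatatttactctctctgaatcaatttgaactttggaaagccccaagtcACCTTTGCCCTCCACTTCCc
The longest shared run was 13 bases, and 5 of 32849 other promoter windows (0.0152%) shared a run of that length with Ccl6. In the window of 250 bases before to 50 after the start, on both strands, Ccl9 held 1 match to the AP-1 motif TGANTCA, 1 to the kappaB consensus and 3 to TATAAA, 2 of which overlap, while Ccl6 held none of these. Of all 32851 promoters, 7.81%, 8.46% and 13.6% held at least 1 such match.

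Ccl9 had 80 and 94.5 CPM in the before-B VLDLR_KO libraries, 233 and 247 CPM in ROBO4_KO and 212, 227 and 278 CPM in WT. In after-B libraries there were 191, 265 and 249 CPM of Ccl9 in VLDLR_KO, 290, 322 and 316 CPM in ROBO4_KO and 372 and 421 CPM in WT. VLDLR_KO lay lowest within each form without overlap. Of all genes 51.5% and 51.4% separated from WT in either direction, and 62.7% and 34.2% from ROBO4_KO, before and after B. Of the 6 chemokine genes tested between VLDLR_KO and the other genotypes, Ccl9 was the one that passed over all libraries, with a log2 fold change of -1.02 from WT (SE 0.18, adjusted p = 0.00111) and -0.81 from ROBO4_KO (SE 0.17, adjusted p = 0.00537). Within forms the difference from ROBO4_KO was -1.45 before B (SE 0.16, adjusted p = 0.00282), and after B it was -0.40 (SE 0.12, adjusted p = 0.0623) and missed the threshold. Without code form as a covariate neither passed (adjusted p = 0.129 and 0.199).

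Within forms, the VLDLR_KO to WT difference of Ccl9 was -1.45 before B (SE 0.15, adjusted p = 0.00150) and -0.76 after B (SE 0.13, adjusted p = 0.00898). The decrease was larger before B by -0.70 (SE 0.21, adjusted p = 0.0413), a change that lost its call on leaving out any library but VLDLR_KO 2, VLDLR_KO 3, ROBO4_KO 3 or WT 3 (adjusted p up to 0.153). Against ROBO4_KO the change between forms was -1.06 (SE 0.21, adjusted p = 0.0146), and without ROBO4_KO 2 its adjusted p was 0.0584. The ROBO4_KO to WT difference of Ccl9 was -0.21 (95% interval -0.58 to 0.15, adjusted p = 1).

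Ccl6 had 92.6 and 105 CPM in the before-B VLDLR_KO libraries, 215 and 200 CPM in ROBO4_KO and 237, 271 and 281 CPM in WT. The after-B libraries had 222, 482 and 392 CPM of Ccl6 in VLDLR_KO, 352, 277 and 273 CPM in ROBO4_KO and 415 and 437 CPM in WT. VLDLR_KO was lowest before B without overlap, and after B its libraries spanned those of both other genotypes. Before B 51.5% of all genes separated VLDLR_KO from WT and 62.7% from ROBO4_KO, in either direction. Before B, Ccl6 was lower than in WT by -1.40 on the log2 scale (SE 0.13, adjusted p = 0.000771) and than in ROBO4_KO by -1.07 (SE 0.13, adjusted p = 0.00432).

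After B, Ccl6 differed from WT by -0.22 (95% interval -0.85 to 0.41, adjusted p = 0.596) and from ROBO4_KO by 0.28 (SE 0.25, adjusted p = 0.481). Over all libraries the difference from WT was -0.71 (SE 0.26, adjusted p = 0.0721), and it passed without VLDLR_KO 4 at -0.92 (adjusted p = 0.0103). The change between forms was -1.19 against WT (SE 0.34, adjusted p = 0.0326) and -1.35 against ROBO4_KO (SE 0.33, adjusted p = 0.0300). The first lost its call without VLDLR_KO 2, VLDLR_KO 5 or any of WT 1, 2, 4 and 5 (adjusted p up to 0.108), and the second without VLDLR_KO 2, VLDLR_KO 5 or any of ROBO4_KO 1, 2, 4 and 5 (adjusted p up to 0.0985). The ratio of Ccl6 to Ccl9 CPM was 1.13 ± 0.0348 and 1.52 ± 0.333 in VLDLR_KO, 0.867 ± 0.0776 and 0.979 ± 0.202 in ROBO4_KO, and 1.11 ± 0.0907 and 1.08 ± 0.0552 in WT, before and after B (SD, n = 2 or 3).

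Pf4, whose protein binds heparin and other glycosaminoglycans, differed mainly between code forms. It had 6.52 and 6.36 CPM in the before-B VLDLR_KO libraries, 3.14 and 5.75 CPM in ROBO4_KO and 6.4, 4.39 and 5.7 CPM in WT. The after-B libraries had 26.8, 30.6 and 34.3 CPM of Pf4 in VLDLR_KO, 23.5, 41.1 and 43.6 CPM in ROBO4_KO and 42.5 and 28.2 CPM in WT. Over the genotypes it ranged from 3.14 to 6.52 CPM before B and from 23.5 to 43.6 CPM after B, where all 3 genotypes overlapped.

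The difference of Pf4 between forms, before B minus after B, was -2.64 on the log2 scale (SE 0.19, adjusted p = 3.13e-07). Between VLDLR_KO and WT it was -0.04 (95% interval -0.50 to 0.43, adjusted p = 0.928), and between ROBO4_KO and WT -0.07 (95% interval -0.54 to 0.40, adjusted p = 1). Of 8 megakaryocyte and platelet markers, 6 stayed under 1 CPM in every library, among them Ppbp, a platelet chemokine gene beside Pf4, with at most 0.614 CPM. The sum of all 8 was 166 to 209 CPM before B and 68.6 to 131 CPM after B, nearly all from Vwf, which endothelium also expresses. Ppbp had 0, 0 to 0.259 and 0 to 0.416 CPM before B and 0.112 to 0.265, 0.261 to 0.614 and 0.335 to 0.571 CPM after B in VLDLR_KO, ROBO4_KO and WT, on at most 12 counts. The part of either in the Pf4 result was not tested.

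Across the 7 tested genes, 5 differed between code forms, Cxcl14 and Cxcl16 being higher and Ccl6, Ccl9 and Pf4 lower before B. By the same test 38.1% of all genes were called for form, 19.3% higher and 18.8% lower. The median log2 difference was -0.83 over these 7 and 0.02 over all tested genes. Ccl2 and Ccl7 were not called, at -1.32 (adjusted p = 0.169) and -0.32 (adjusted p = 0.760).

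Of the 6 genes tested between VLDLR_KO and WT, Ccl9 alone was called, against 16.8% of all genes. Between VLDLR_KO and ROBO4_KO it was likewise 1 of 6, against 16.0% of all genes. Between ROBO4_KO and WT, edgeR called 0 of 7, against 0.643% of all genes, and DESeq2 called 1, Cxcl14. By edgeR 1 of the 7, also Cxcl14, had an unadjusted p under 0.05, against 715 of 11668 genes. The ROBO4_KO to WT difference was -0.62 for Ccl2 (95% interval -2.27 to 1.03) and -1.0 for Ccl7 (-2.66 to 0.66). It was -0.49 for Ccl6 (-1.01 to 0.04) and -0.11 for Cxcl16 (-0.82 to 0.60). For the change of the VLDLR_KO to WT difference between forms, 5 of 6 were called, against 15.2% of all genes, and for that against ROBO4_KO, 5 of 6 against 8.97%. Both counts moved when 1 library was left out. The first count fell to 3 without VLDLR_KO 5 or any of WT 1, 2, 4 and 5, and the second to 0 without ROBO4_KO 2, 2 without VLDLR_KO 2 and 3 without ROBO4_KO 1. Over all genes, 598 (without WT 2) to 5090 (without VLDLR_KO 1) were called for the first, against 1777, and 194 (without ROBO4_KO 2) to 5262 (without VLDLR_KO 1) for the second, against 1047. For ROBO4_KO and WT the change between forms was called in 0 of 7 by edgeR, against 0.403% of all genes, and in 0 by DESeq2. By edgeR 1 of these 7 had an unadjusted p under 0.05, against 599 of 11668 genes. The comparisons with WT share the WT libraries, and those with VLDLR_KO share its libraries.

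Within the before-B libraries, 5 of 6 genes were called between VLDLR_KO and WT, against 20.5% of all genes, and within the after-B libraries 2 of 7, against 15.7%. Against ROBO4_KO the counts were 4 of 6, against 12.6% of all genes, and 2 of 7, against 14.8%. Between ROBO4_KO and WT they were 0 of 7, against 0.168% of all genes, and 1 of 8, against 1.60%. At an unadjusted p under 0.05 by edgeR there were 3 of 7 before B, against 509 of 11894 genes. After B there were 3 of 8, against 1563 of 11744 genes. Sets of 2 or 3 libraries separated without overlap in many genes. Within the before-B libraries this held for 51.5% of all genes between VLDLR_KO and WT, 62.7% between VLDLR_KO and ROBO4_KO and 29.0% between ROBO4_KO and WT, and within the after-B libraries for 51.4%, 34.2% and 34.6%. With all 5 libraries a genotype, VLDLR_KO did not overlap WT in 9.43% and ROBO4_KO in 8.39% of genes. The within-form spread also differed among the genes. The SD of log2 CPM within genotype and form was lowest for Ccl9, at 0.173, and highest for Ccl2 and Ccl7, at 0.823 and 0.865.

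**Figure D3:**
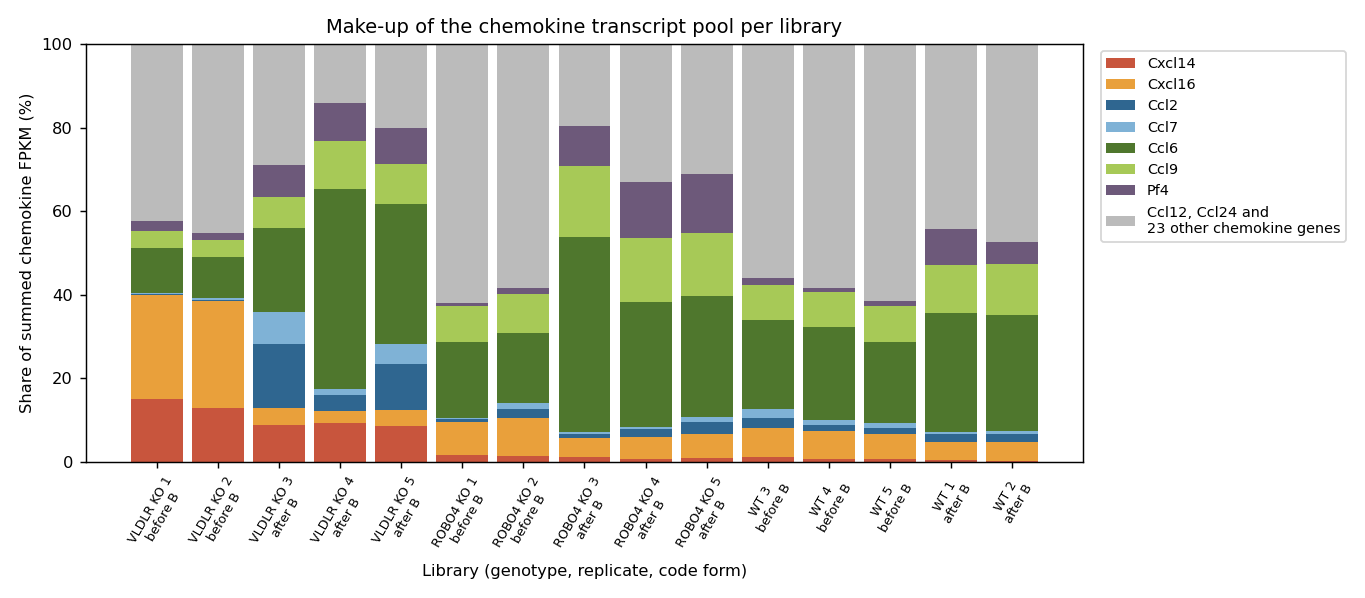
Share of each chemokine gene in the summed FPKM of 32 chemokine genes, in percent, one bar per library ordered by genotype and code form. Cxcl14 takes 8.58% to 15.1% in VLDLR_KO libraries and at most 1.57% in any other, and Ccl2 with Ccl7 widens in the after-B VLDLR_KO libraries.

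The make-up of the chemokine transcripts differed between the sets of libraries. The 9 genes and 23 other chemokine genes in the table summed to 697 to 935 FPKM in VLDLR_KO, 564 to 977 FPKM in ROBO4_KO and 909 to 1178 FPKM in WT libraries. Cxcl14 made up 14 ± 1.56% of that sum before B and 8.86 ± 0.333% after B in VLDLR_KO, 1.51 ± 0.0849% and 0.971 ± 0.225% in ROBO4_KO, and 0.796 ± 0.266% and 0.246 ± 0.116% in WT (SD, n = 2 or 3). Cxcl16 took 24.7% to 25.6% in the before-B VLDLR_KO libraries, and 2.88% to 9.04% in all others. Ccl2 took 3.75% to 15.3% in the after-B VLDLR_KO libraries and 0.294% to 3.02% elsewhere. The 23 other genes took 42.5% to 45.2% and 13.9% to 28.2% in VLDLR_KO, 58.4% to 61.9% and 19.6% to 33% in ROBO4_KO, and 55.9% to 61.6% and 44.3% to 47.1% in WT, before and after B. These were chiefly Ccl3 and Ccl4, which encode inflammatory chemokines, joined by Cxcl2 in the after-B WT libraries.

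Among 29 other chemokine ligands, 23 were in the table and 10 were tested. Between VLDLR_KO and WT none was higher and 3 were lower, against 7.74% and 9.03% of all tested genes. Ccl3 averaged 106 ± 11.4 and 67.5 ± 20.4 CPM in VLDLR_KO and 199 ± 40.4 and 139 ± 7.41 CPM in WT, before and after B (SD, n = 2 or 3), a log2 fold change of -0.92 (SE 0.23, adjusted p = 0.0129). Cx3cl1, which encodes a membrane-bound ligand like CXCL16, changed by -1.95 (SE 0.41, adjusted p = 0.00483), but with at most 0.773 CPM in VLDLR_KO, and by -3.02 before B (adjusted p = 0.00403) and -1.06 after B (adjusted p = 0.0640). Cxcl2, a neutrophil attractant, changed by -4.22 (SE 1.23, adjusted p = 0.0298), on 128 and 182 CPM in the after-B WT libraries and at most 2.38 CPM in every other library.

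Of 19 chemokine receptor genes, 8 were tested over all libraries, and 3 were higher and 0 lower in VLDLR_KO than in WT by edgeR, against 7.74% and 9.03% of all tested genes. Before B 3 were higher and 2 lower of 8, and after B 2 were higher and 1 lower of 10. Cx3cr1, the receptor of CX3CL1, was higher in VLDLR_KO than in WT by 2.76 on the log2 scale (SE 0.49, adjusted p = 0.00141), and Cxcr2 by 1.88 (SE 0.38, adjusted p = 0.00387) with at most 2.54 CPM. Within forms Cx3cr1 differed by 2.51 before B (adjusted p = 0.00758) and 3.07 after B (adjusted p = 0.0530), and Cxcr2, tested after B alone, by 1.72 (adjusted p = 0.0180).

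The receptors of the chemokines described here gave a mixed picture. Ccr2, the receptor of CCL2, CCL7 and CCL12, stayed at 0.598 to 4.71 CPM in VLDLR_KO, 0.48 to 5.47 CPM in ROBO4_KO and 0.32 to 2.97 CPM in WT, with a VLDLR_KO to WT difference of 0.10 (SE 0.30, adjusted p = 0.840). Ccr1, the receptor of CCL6 and CCL9, was lower before B by -3.62 (SE 0.28, adjusted p = 5.14e-07) and differed between VLDLR_KO and WT by -0.57 (SE 0.31, adjusted p = 0.224), with -1.45 before B (adjusted p = 0.0261) and -0.08 after B (adjusted p = 0.874). Ccr3, the receptor of CCL24, differed by -1.35 over all libraries (SE 0.44, adjusted p = 0.0515) and by -3.17 before B (SE 0.38, adjusted p = 0.00237) and -0.53 after B (adjusted p = 0.304). Cxcr6, the receptor of CXCL16, had at most 0.211 CPM and was not tested. Cxcr4, which has been reported to bind CXCL14, had 454 to 477 and 38.1 to 42 CPM in VLDLR_KO, 177 to 212 and 61.7 to 77.1 CPM in ROBO4_KO and 151 to 180 and 101 to 130 CPM in WT, before and after B. Within forms it differed between VLDLR_KO and WT by 1.54 (SE 0.13, adjusted p = 0.000639) and -1.53 (SE 0.13, adjusted p = 0.000179), the order of Cxcl16 rather than of Cxcl14.

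Of 12 chemokine-processing enzymes, 11 were tested, and 2 were lower in VLDLR_KO than in WT, with none higher, against 9.03% and 7.74% of all tested genes. Mmp12, the macrophage elastase, which can cleave CCL2 and CCL7, changed by -1.04 (SE 0.27, adjusted p = 0.0151), and by -1.69 before B (adjusted p = 0.000268) and -0.51 after B (adjusted p = 0.347). Ctss, a cathepsin, changed by -0.49 (SE 0.12, adjusted p = 0.0116), with -0.34 before B (adjusted p = 0.0783) and -0.63 after B (adjusted p = 0.0555). Adam10, the sheddase of CXCL16, differed by -0.10 (SE 0.15, adjusted p = 0.691). The 1 tested atypical receptor gene, Ccrl2, had 40 to 47.2 and 21.8 to 43.1 CPM in VLDLR_KO, 17.5 to 19.6 and 19.9 to 37.8 CPM in ROBO4_KO and 23 to 26.8 and 210 to 260 CPM in WT, before and after B. It went opposite ways between VLDLR_KO and WT, by 0.79 before B (SE 0.13, adjusted p = 0.00741) and -2.91 after B (SE 0.31, adjusted p = 0.00081), and over all libraries it differed by -1.20 (SE 0.56, adjusted p = 0.155).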

How the data were processed

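Per the labels' protocols, total RNA of macrophages was extracted with TRIzol, prepared with a SMARTER mRNA-Seq kit and sequenced as read pairs on a BGISEQ-500. The submitters' processing notes name HISAT, Bowtie2 and GRCm38.p6. No quantifier or strand setting is named there. The authors deposited estimated counts per gene and transcript (92.6% of gene counts were whole numbers) and a second value per gene without a stated unit. That deposited value was read as FPKM, since dividing counts by it gave, gene by gene, ratios proportional to library totals (median deviation 0.66%). The 57 further columns of set averages and comparisons in the gene table are named by letters that no label ties to samples, and were not used. Gene positions are those of the deposited table.

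Rounded counts were fitted using edgeR 4.0.16 under R 4.3.3 (filterByExpr by genotype, TMM, quasi-likelihood F tests, two-sided, Benjamini-Hochberg over all tested genes, threshold 0.05). The model held genotype and code form for all 15 libraries. Changes between forms came from a model with their interaction, and within-form values from separate fits. CPM are scaled by TMM, and 95% intervals use the SE and edgeR's total degrees of freedom. The difference of VLDLR_KO from ROBO4_KO between forms was added after the data were seen. Alternatives were DESeq2 1.42.0, limma 3.58.1 on log2(FPKM + 1) and log2(FPKM + 0.1), other scaling, no filter, no form covariate, a replicate block, and leaving out libraries. Scripts were tested on simulated counts. Floors of 3 counts cover counting error only. Replicates of a group differed by more than counting error (chi-square per degree of freedom at least 5.7).

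The genes, lists and motifs were chosen with earlier results of these data known. The rule named the 9 genes in every comparison, and values are given where they could be tested. Of the other lists it named the genes called between VLDLR_KO and WT over all libraries (at most 6 per list), except for 1 receptor result that is not reported here. The receptors and the sheddase of the 9 are named besides. Patterns nearest to a gene were ranked by root mean square difference of centred log2 CPM, 5 for Cxcl14 and Ccl2 and 1 for others.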

Additional observations from a re-analysis of the deposited data

Results flagged for a closer look

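The difference between VLDLR_KO and WT changed with code form, by a test of the interaction with edgeR over all genes, in 5 chemokine genes. Before B minus after B, the change on the log2 scale was -4.85 for Ccl2, -4.77 for Ccl7, -1.19 for Ccl6, -0.70 for Ccl9 and 2.29 for Cxcl16. The same 5 genes were called for the change of the difference between VLDLR_KO and ROBO4_KO, at -5.25 for Ccl2, -4.65 for Ccl7, -1.35 for Ccl6, -1.06 for Ccl9 and 1.39 for Cxcl16. The comparisons share the VLDLR_KO libraries.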

How the results depend on the processing

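Depth was even, so low counts limit chiefly Ccl12 and Ccl24, and each set of 1 genotype and 1 code form held 2 or 3 libraries. No scaling or filter moved the median log2 fold change of all genes by 0.1. The genes besides Cxcl14 called between VLDLR_KO and WT numbered 1, and 2 with DESeq2, with limma on either pseudocount (Ccl6 joining Ccl9), after B and without WT 1 and 2, 5 before B and 0 without the form covariate. Between VLDLR_KO and ROBO4_KO the number was 4 before B, 2 after B and 0 without the covariate. Between ROBO4_KO and WT it was 1, Cxcl14, with DESeq2 (adjusted p = 0.000853), limma on log2(FPKM + 1) (0.0450), no filter (0.0360) and after B. It was 0 with limma on log2(FPKM + 0.1), other scaling, the replicate block, no form covariate, before B and without WT 1 and 2. Leaving out each library gave 1 to 2, 1 to 2 and 0 to 1 genes for these comparisons, and 3 to 5, 0 to 5 and 0 for the changes between forms of VLDLR_KO against WT, VLDLR_KO against ROBO4_KO and ROBO4_KO against WT. The genes called numbered 1957, 1868 and 75 for the comparisons in that order. Without the form covariate they were 1086, 888 and 39, and over the fits leaving out a library 1455 to 2269, 1298 to 2041 and 55 to 125, the last without VLDLR_KO 2. For ROBO4_KO against WT they were also 172 with DESeq2, 188 after B, 20 before B and 44 without WT 1 and 2. For the changes between forms they were 1777, 1047 and 47, with DESeq2 2058 for the second and 88 for the third, and with a library left out 598 (WT 2) to 5090 (VLDLR_KO 1), 194 (ROBO4_KO 2) to 5262 (VLDLR_KO 1) and 32 to 60. For code form they were 3911 to 4718, with 5 chemokine genes throughout. Where leaving out a library left 1 in its set, that library was assumed to vary like the other sets.

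Among libraries with the same code number within a form, the correlation of their deviations exceeded 0.1 in 4 of 12 pairs (median -0.193). Deviations from the mean of so few libraries cancel out within a genotype and form, which ties the correlations to each other. They therefore cannot decide whether libraries were paired by code number. With the number as a replicate block 1517, 1141 and 51 genes were called, Ccl9 was called as before, and the signs of Cxcl16 between ROBO4_KO and WT (0.04) and Pf4 between VLDLR_KO and ROBO4_KO (-0.00) turned.

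Other signs turned in differences that were not called over all libraries. Between VLDLR_KO and WT, Ccl2 was -0.34 and -0.17 with limma at pseudocounts of 0.1 and 1, -2.83 before B and -0.18 without WT 1 and 2. Ccl7 was -0.00 with limma at 0.1, -2.39 before B and -0.29 without WT 1 and 2, Cxcl16 -0.76 after B, and Pf4 0.27 without the covariate, 0.24 before B and 0.00 without WT 1 and 2. Between VLDLR_KO and ROBO4_KO, Ccl2 was -2.58 and Ccl7 -1.59 before B, Ccl6 0.28 and Cxcl16 -0.16 after B, and Pf4 -0.16 without the covariate and -0.24 after B. Between ROBO4_KO and WT, Ccl9 was 0.01 and Cxcl16 0.31 before B, Cxcl16 0.79 without WT 1 and 2, and Pf4 0.43 without the covariate and 0.03 after B. With a library left out, Cxcl16 ranged from -0.23 to 0.13 and Pf4 from -0.19 to 0.10 between ROBO4_KO and WT, and Pf4 from -0.13 to 0.09 and -0.11 to 0.17 for VLDLR_KO against WT and ROBO4_KO. The changes between forms for ROBO4_KO against WT ranged from -0.64 to 1 for Ccl2, -1.25 to 0.50 for Ccl7, -0.84 to 0.05 for Cxcl14 and -0.84 to 0.03 for Pf4, and code form from -0.99 to 0.24 for Ccl7. Apart from differences made by smaller sets of libraries, the cause was not tested.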
